A study of Homo sapiens with 41 samples.

Results

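The genes described here encode the proteasome, its activators and the chaperones that assemble it. They were taken from the gene count table of a serum time course as the protein-coding genes whose symbol starts with PSM and a letter from A to G followed by a digit, which gave 50 of the 58721 genes in the table. Of these, 48 encode proteasome proteins or their partners. The other 2, PSMC3IP and PSME3IP1, share the symbol pattern but are not proteasome subunits. Their values are given apart, but counts and medians over the tested genes include them. The cells were T98G, an immortalized human glioblastoma line that arrests without growth factors. Cells for every time point were kept without serum for 72 h and then given medium with 20% fetal calf serum, and RNA was collected every 10 min to 400 min, with 0 min as the cells without serum. Each of the 41 time points has 1 library of total RNA depleted of rRNA, so no time point has a replicate, and errors come from the spread of the libraries about a fitted curve or among neighbouring time points.

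The proteasome degrades proteins that carry ubiquitin chains. Its 20S core is a barrel of stacked rings, with outer rings of alpha subunits that gate the entrance and inner rings of beta subunits, of which PSMB5, PSMB6 and PSMB7 cut peptide bonds. The 19S particle caps the core: the ATPases of its base (PSMC genes) unfold the substrate, and the other base and lid subunits (PSMD genes) bind ubiquitin and remove it. In immune cells and under interferon, PSMB8, PSMB9 and PSMB10 take the places of PSMB5, PSMB6 and PSMB7 and form the immunoproteasome, which makes peptides for antigen presentation. Other caps can replace the 19S particle: PSME1 with PSME2 (PA28 alpha and beta, raised by interferon), PSME3 (PA28 gamma, in the nucleus) and PSME4 (PA200). PSMG1 to PSMG4 help to build the core, PSMD5, PSMD9 and PSMD10 help to build the base, and PSMF1 (PI31) binds the core.

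By these roles the 50 genes are 8 of the alpha ring, 7 of the beta ring, 4 immunoproteasome or thymus beta subunits, 6 base ATPases, 11 other base and lid subunits, 4 activators, PSMF1, 4 core chaperones, 3 base chaperones and the 2 genes outside the proteasome. Counts were scaled to the median of ratios over all genes, and a normalized count is a count divided by that factor. To be tested, a gene needed more than 10 counts in some library and more than 2 in 3 libraries in a row, which 48 of the 50 passed. The others were PSMA8, the alpha subunit of the testis, with 0 counts in every library, and PSMB11, the beta subunit of the thymus, with 2 counts in all 41 libraries together. These 48 genes, PSMC3IP and PSME3IP1 among them, are the ones tested below. Their normalized counts in every library are drawn by role in the heat map.

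**Figure D1:**
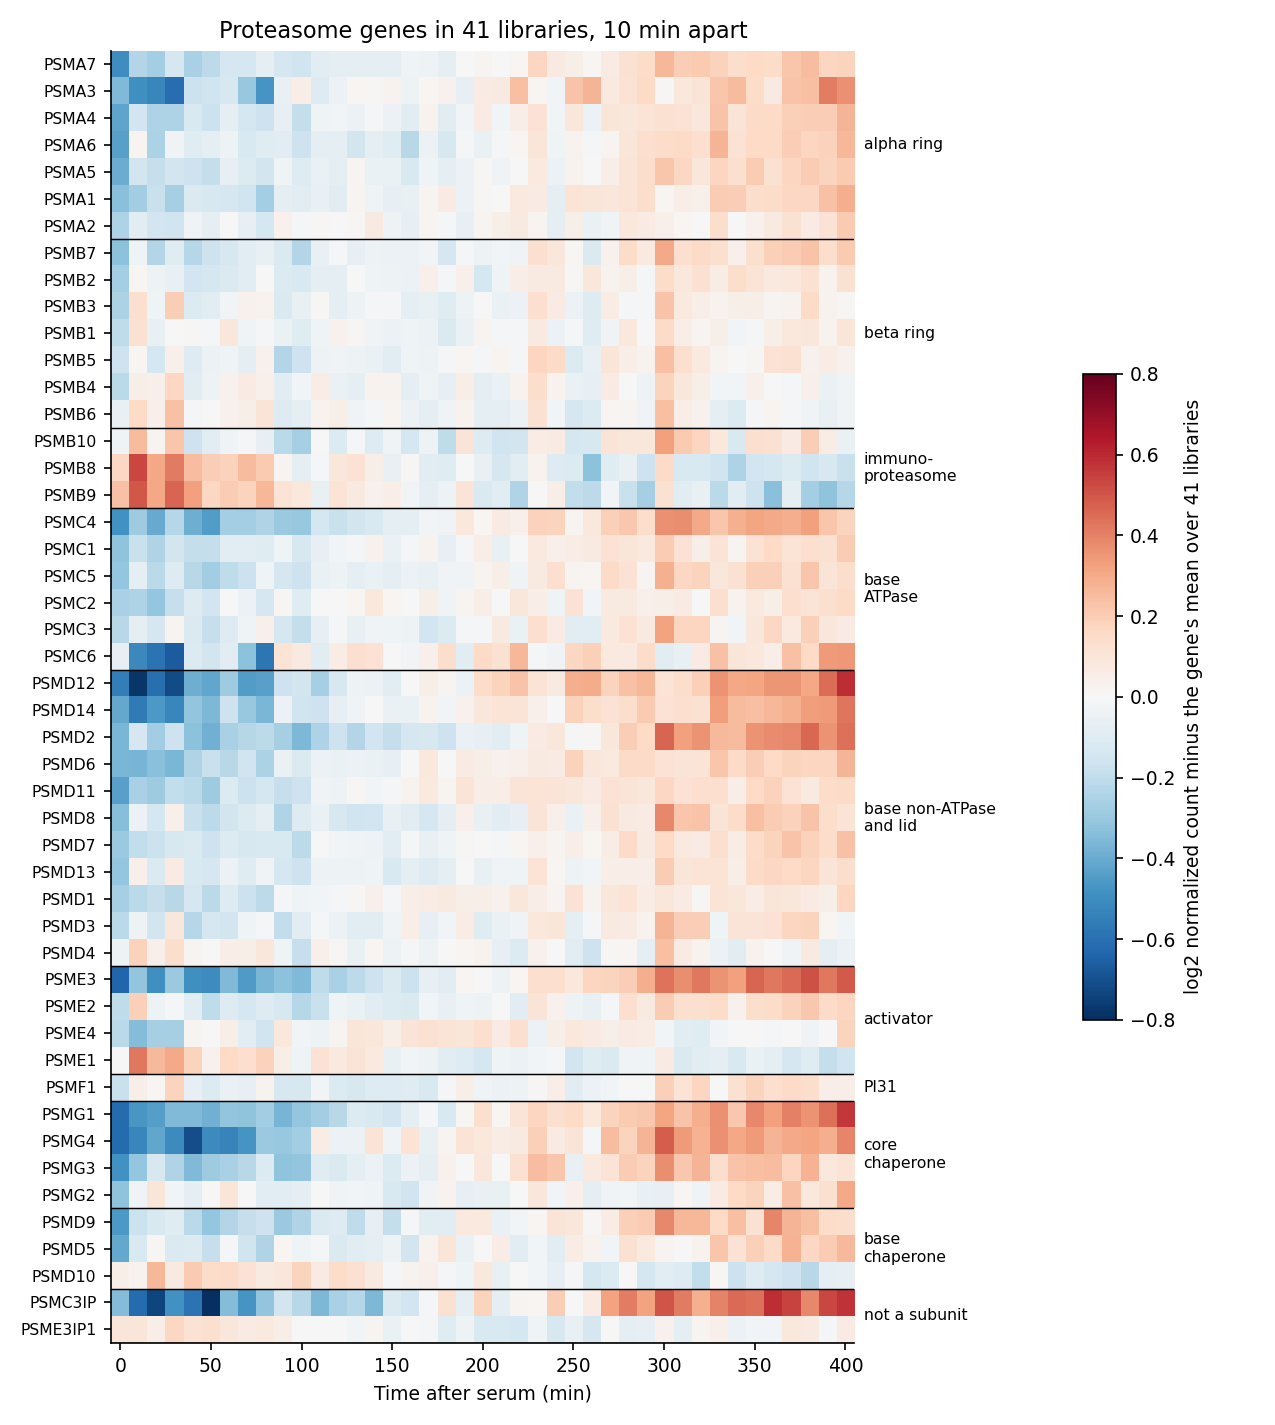
Normalized counts of the 48 tested genes (rows, grouped by role) in the 41 libraries (columns, time after serum in min), as log2 of the normalized count minus the mean of that gene over all libraries. Most rows turn from blue at early times to red at late times, PSMB8, PSMB9, PSMD10 and PSME1 run the other way, and the columns at 0 min and 300 min stand out.

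Promoters are shown for 5 genes whose profiles carry the results: PSME3, PSMG1 and PSMD12, which rose most, PSMD14, whose profile was closest to that of PSMD12, and PSMB9, which fell most. Each runs from 250 bases before to 50 bases after the start site, 5′ to 3′ on the gene's strand, from RefSeq on GRCh38.p14, and capitals mark matches to the motifs named below.
PSME3, chr17:42833147-42833446, plus strand: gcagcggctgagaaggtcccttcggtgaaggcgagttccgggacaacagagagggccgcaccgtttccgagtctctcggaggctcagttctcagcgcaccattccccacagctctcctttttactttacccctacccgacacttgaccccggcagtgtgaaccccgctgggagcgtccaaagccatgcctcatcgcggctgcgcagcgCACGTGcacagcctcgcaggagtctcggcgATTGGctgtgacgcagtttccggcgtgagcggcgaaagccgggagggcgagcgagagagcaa
PSMG1, chr21:39183402-39183701, minus strand: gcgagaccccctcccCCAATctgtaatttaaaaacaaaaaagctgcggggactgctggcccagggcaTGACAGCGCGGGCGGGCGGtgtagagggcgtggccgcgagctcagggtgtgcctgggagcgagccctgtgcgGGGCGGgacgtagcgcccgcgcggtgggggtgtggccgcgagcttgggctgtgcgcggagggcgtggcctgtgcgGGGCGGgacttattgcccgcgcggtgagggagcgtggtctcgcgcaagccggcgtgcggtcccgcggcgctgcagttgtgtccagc
PSMD12, chr17:67366528-67366827, minus strand: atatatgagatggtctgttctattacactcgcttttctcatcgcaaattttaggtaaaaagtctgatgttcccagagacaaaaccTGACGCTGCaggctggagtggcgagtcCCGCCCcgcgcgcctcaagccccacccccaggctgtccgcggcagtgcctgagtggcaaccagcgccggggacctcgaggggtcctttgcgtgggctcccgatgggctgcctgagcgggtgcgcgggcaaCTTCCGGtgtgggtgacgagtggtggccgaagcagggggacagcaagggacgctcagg
PSMD14, chr2:161308175-161308474, plus strand: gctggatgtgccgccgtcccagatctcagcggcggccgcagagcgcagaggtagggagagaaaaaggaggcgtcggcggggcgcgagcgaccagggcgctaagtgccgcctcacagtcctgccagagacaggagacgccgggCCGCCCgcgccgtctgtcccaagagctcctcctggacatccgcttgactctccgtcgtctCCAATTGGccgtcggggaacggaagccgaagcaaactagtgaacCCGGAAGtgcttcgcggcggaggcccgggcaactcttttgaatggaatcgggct
PSMB9, chr6:32853942-32854241, plus strand: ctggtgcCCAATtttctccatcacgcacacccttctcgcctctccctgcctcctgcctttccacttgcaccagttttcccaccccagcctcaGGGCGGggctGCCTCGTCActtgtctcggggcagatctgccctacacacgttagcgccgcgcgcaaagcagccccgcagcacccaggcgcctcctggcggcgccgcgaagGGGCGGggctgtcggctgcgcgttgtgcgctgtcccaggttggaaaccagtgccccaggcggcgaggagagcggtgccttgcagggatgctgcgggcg

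The motifs, searched on both strands, were TGACNNNGC (the core of the antioxidant response element, to which the NFE2L factors bind), CCAAT (the NF-Y box), GGGCGG (the GC box), CCGGAAG (an ETS motif), CACGTG (an E-box) and TGACGTCA (the cAMP response element). RefSeq promoters were matched to 44 of the 50 genes, 55 promoters in all. PSMG3, PSMD4, PSMB1, PSMB6, PSMA7 and PSMB7 were not matched. TGACNNNGC was found in 27.3% of the promoters of these genes, against 13.3% of all 35116 promoters in the table and 14.1% of those of tested protein-coding genes. CCGGAAG was found in 32.7%, against 10.3% of all promoters and 16% of those of tested protein-coding genes. For GGGCGG the shares were 70.9%, 45% and 64.2%, and for CCAAT they were 43.6%, 34.6% and 34.8%. Counted by gene, GGGCGG was in 70.5% of these genes and 75.5% of tested protein-coding genes, the other way round, while TGACNNNGC was in 34.1% and 19.1%, CCGGAAG in 38.6% and 21.6% and CCAAT in 50% and 43.6%. CACGTG was in 9.09% of the promoters, against 7.26% of all and 9.08% of those of tested protein-coding genes. TGACGTCA was in none of the 55, against 1.85% and 2.73%. Of the 154 matches, 8 shared a base with a match to another motif. By gene, TGACNNNGC was found for 13 of 33 genes that were called higher at 400 min and for 2 of 9 that were tested and not called higher. In the promoters printed above, PSMD12, PSMG1 and PSMB9 hold a match to TGACNNNGC, at positions -165, -183 and -148 from the start site, and PSME3 holds the E-box and a CCAAT box. A match is a run of letters and was not tested as a binding site.

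Libraries held 18206982 to 64948114 counts (median 41773419), and size factors ran between 0.447 and 1.6. The line's own markers were present for VIM, CD44, EGFR and FN1, while NES stayed at 21.2 to 61.7 normalized counts and SOX2 at 0 to 2.25. The astrocyte markers GFAP, AQP4 and ALDH1L1 reached at most 6.23, 1.13 and 3.62, the leukocyte genes PTPRC and CD3E at most 12.1 and 2.24, and CD68 had a median of 1723. The summed level of 4 genes of dividing cells (MKI67, TOP2A, CCNB1, CDK1) was 2355 to 2866 at 360 to 400 min and 3344 to 4480 at 0 to 40 min. That of the 6 glioblastoma markers was 225720 to 232389 at 360 to 400 min and 174146 to 195370 at 0 to 40 min. The part of either in the results below was not tested. Spike-in sequences took 1.14% to 1.74% of the counts at 360 to 400 min and 1.45% to 2.07% at 0 to 40 min. As the RNA is from a whole culture, more transcript per cell and a larger share of cells that express a gene cannot be told apart.

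Most of the 48 tested genes rose slowly after serum, by a median of 0.44 on the log2 scale at 400 min, and PSMB8 and PSMB9 fell. The question put to the time course was when, and by how much, each gene left its level in starved cells, so a smooth curve of time was fitted to each gene in edgeR (quasi-likelihood test, natural spline, Benjamini-Hochberg adjustment over 21629 genes, called at an adjusted p below 0.01) and read at 5 times against 0 min. At 30 min 1 of the 48 tested genes was higher, against 1.71% of all tested genes, and none was lower, against 0.342% of all tested genes. At 60 min 4 were higher (8.33%, against 5.15% of all tested genes) and 0 lower (1.23% of all tested genes). At 120 min 21 were higher (43.8%, against 13.6%) and 0 lower (6.75% of all). At an unadjusted p below 0.05 in edgeR, the number of lower genes was 1, 0 and 2 for 30, 60 and 120 min, and DESeq2 called 0 lower at each of these times. At 240 min 35 were higher (72.9%, against 21.6%) and 3 lower (6.25%, against 18.5%). At 400 min 36 were higher (75%, against 24.2%) and 2 were lower (4.17%, against 22.4%). The median log2 change of the 48 genes over the 5 times was 0.15, 0.14, 0.21, 0.32 and 0.44, where the median over all tested genes lay between -0.004 and 0.049.

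Proteasome genes are abundant protein-coding genes, and such genes were called higher more often than the rest. Among 14056 tested protein-coding genes, 31% were higher and 25.6% lower at 400 min, with a median log2 change of 0.03. Among the 4975 of them with a mean normalized count of at least 1000, 48.2% were higher and 17.6% lower, with a median of 0.27. Over the whole course, 44 of the 48 changed by the joint test of all spline terms in edgeR, against 75.5% of all tested genes. The 4 that did not pass were PSMB4, PSMB1, PSMB6 and PSMD4, with adjusted p of 0.025, 0.063, 0.16 and 0.34 in edgeR. The Ljung–Box test, which asks whether neighbouring libraries resemble each other, called 40 of the 48, against 60.9% of all tested genes. Those not called were PSMB1, PSMB3, PSMB4, PSMB5, PSMB6, PSMB10, PSMD4 and PSMG2, so 5 of the 8 belong to the beta ring.

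The 0 min library and the scaling touch every one of these counts. The 0 min library was the lowest of all 41 for 27 of the 48 genes, and for 32 it lay below all 5 libraries of 10 to 50 min, as it did for 21.9% of all tested genes. With that library left out, the curve had to be carried back from 10 min, and the median log2 change of the 48 genes over the 5 times was 0.003, 0.004, 0.07, 0.18 and 0.30. At 30 and 60 min these medians lie below those of all tested genes in the same fit, 0.06 and 0.05, so the early rise of the median rests on the 0 min library. The median SE at 400 min was 0.19 in place of 0.077, and 7 genes were called higher (8.17% of all genes) and 1 lower (5.24% of all genes). The 7 were PSMA7, PSMD12, PSMD14, PSME3, PSMG1, PSMG4 and PSMC3IP, the last of them no proteasome gene. The 1 lower gene was neither PSMB8 nor PSMB9. When the 5 libraries of 360 to 400 min were instead compared with the 5 of 10 to 50 min in edgeR, a comparison chosen after the data were seen, 31 genes were higher (27.3% of all genes) and 4 lower (27.6% of all genes). With scaling to the spike-in sequences, the median log2 change of these genes was 0.49 at 400 min, but SEs were larger (0.20 in place of 0.11 for PSMB9) and 11 were called higher (12.9% of all genes) and 0 lower (12% of all genes). At 60 min spike-in scaling moved the median over all tested genes to -0.22 and that of the 48 genes to -0.09. Relative to all genes the difference was thus 0.13 with either scaling.

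**Figure D2:**
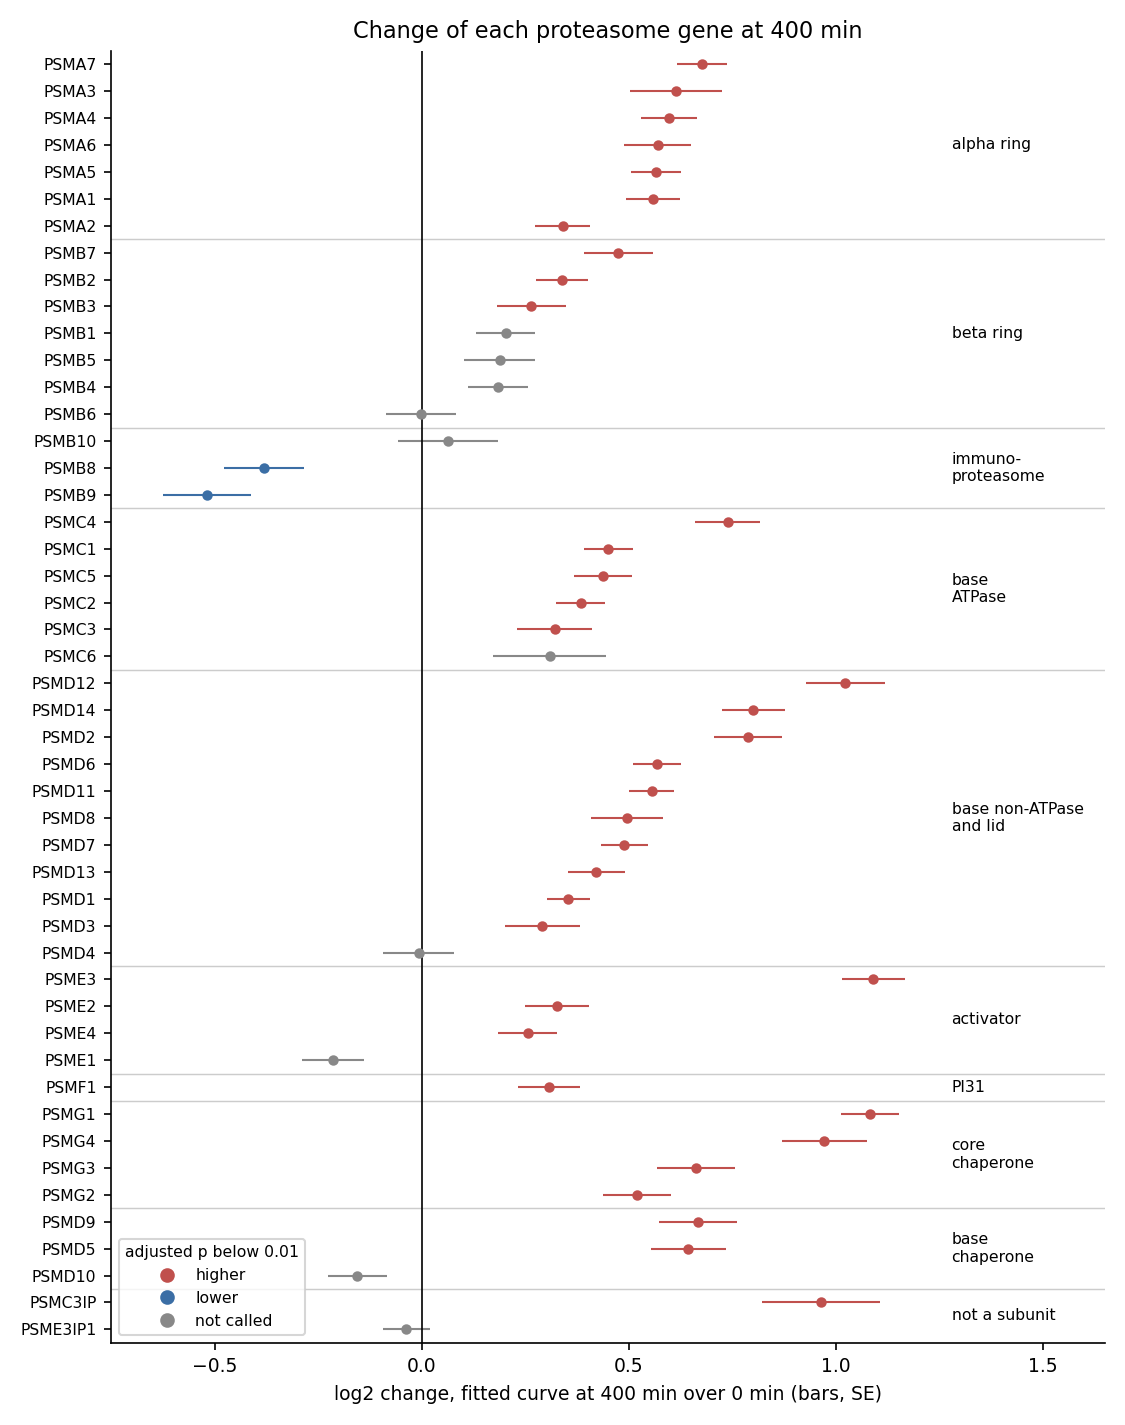
Fitted log2 change at 400 min over 0 min for the 48 tested genes, by role, with bars for the SE. Red points are called higher and blue points lower at an adjusted p below 0.01 in edgeR. The 7 alpha ring genes lie between 0.34 and 0.68, the beta ring genes between -0.0008 and 0.48, and PSMB8 and PSMB9 are the blue points.

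Every tested gene of the alpha ring rose. All 7 were called higher at 240 and at 400 min, with log2 changes of 0.34 to 0.68 at 400 min (median 0.57). Without the 0 min library PSMA7 alone stayed called (0.52), PSMA2 had 0.05, PSMA4 had 0.19 and PSMA6 had -0.05, while all 7 were called higher when 360 to 400 min was set against 10 to 50 min. PSMA7, the most abundant of the proteasome genes per kb of exon, was called first. It had normalized counts of 7484, 7886, 8027, 7624 and 7655 at 360 to 400 min, against 4792, 5742, 5603, 6151 and 5640 at 0 to 40 min. The late libraries all lie above the early ones, and the 0 min library is the lowest of the early 5. The fitted log2 change of PSMA7 was 0.28 ± 0.066 (SE) at 30 min, 0.32 ± 0.058 at 60 min and 0.68 ± 0.061 at 400 min (adjusted p = 2.7e-13, edgeR). PSMA5 was also called by 60 min, with a log2 change of 0.23 ± 0.058 then and 0.57 ± 0.060 at 400 min. Its counts were 4301 to 4568 in the late libraries, against 2993 at 0 min and 3469 to 3567 at 10 to 40 min, so the 0 min library stands alone below the rest. PSMA2 changed least of the ring (0.34 ± 0.065, adjusted p = 1.9e-05, edgeR), with 5686 ± 235 normalized counts late and 4779 ± 265 early (SD, n = 5 neighbouring libraries each). Of the exon bases of PSMA2, 17.2% lie in another annotated gene on the same strand, and such reads were counted for both genes. The same holds for 26.7% of PSMA1 and 14.1% of PSMA6.

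The beta ring moved less than the alpha ring, and 4 of its 7 genes were not called. PSMB7, PSMB2 and PSMB3 were higher at 400 min, and PSMB1, PSMB4, PSMB5 and PSMB6 were not called. PSMB7, whose product cuts after basic residues, changed most (0.48 ± 0.084, adjusted p = 4.7e-06, edgeR). It had 3682, 3703, 3774, 3546 and 3719 normalized counts at 360 to 400 min, against 2567, 3151, 2739, 3008 and 2747 at 0 to 40 min, with no overlap. PSMB6, whose product cuts after acidic residues, had 3055, 2975, 2960, 2886 and 2960 counts late, against 2895, 3371, 3100, 3548 and 2986 early. The late libraries lie inside the range of the early ones, and the fitted log2 change was -0.0008 ± 0.085 (adjusted p = 0.99, edgeR). PSMB5, whose product cuts after hydrophobic residues, had 2212 ± 65.9 counts late and 2006 ± 131 early (SD, n = 5 each), a log2 change of 0.19 ± 0.086 (adjusted p = 0.057, edgeR). The structural subunits PSMB1 and PSMB4 had log2 changes of 0.20 ± 0.071 and 0.18 ± 0.073 (adjusted p = 0.013 and 0.028, edgeR). PSMB4 averaged 5516 counts late and 5543 early, with the 0 min library at 4787, the lowest of the 41. PSMB3 was called (0.27 ± 0.083, adjusted p = 0.0058, edgeR) although its windows overlap, with 2621 ± 111 late and 2526 ± 315 early, and it was not called when 360 to 400 min was set against 0 to 40 or 10 to 50 min.

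**Figure D3:**
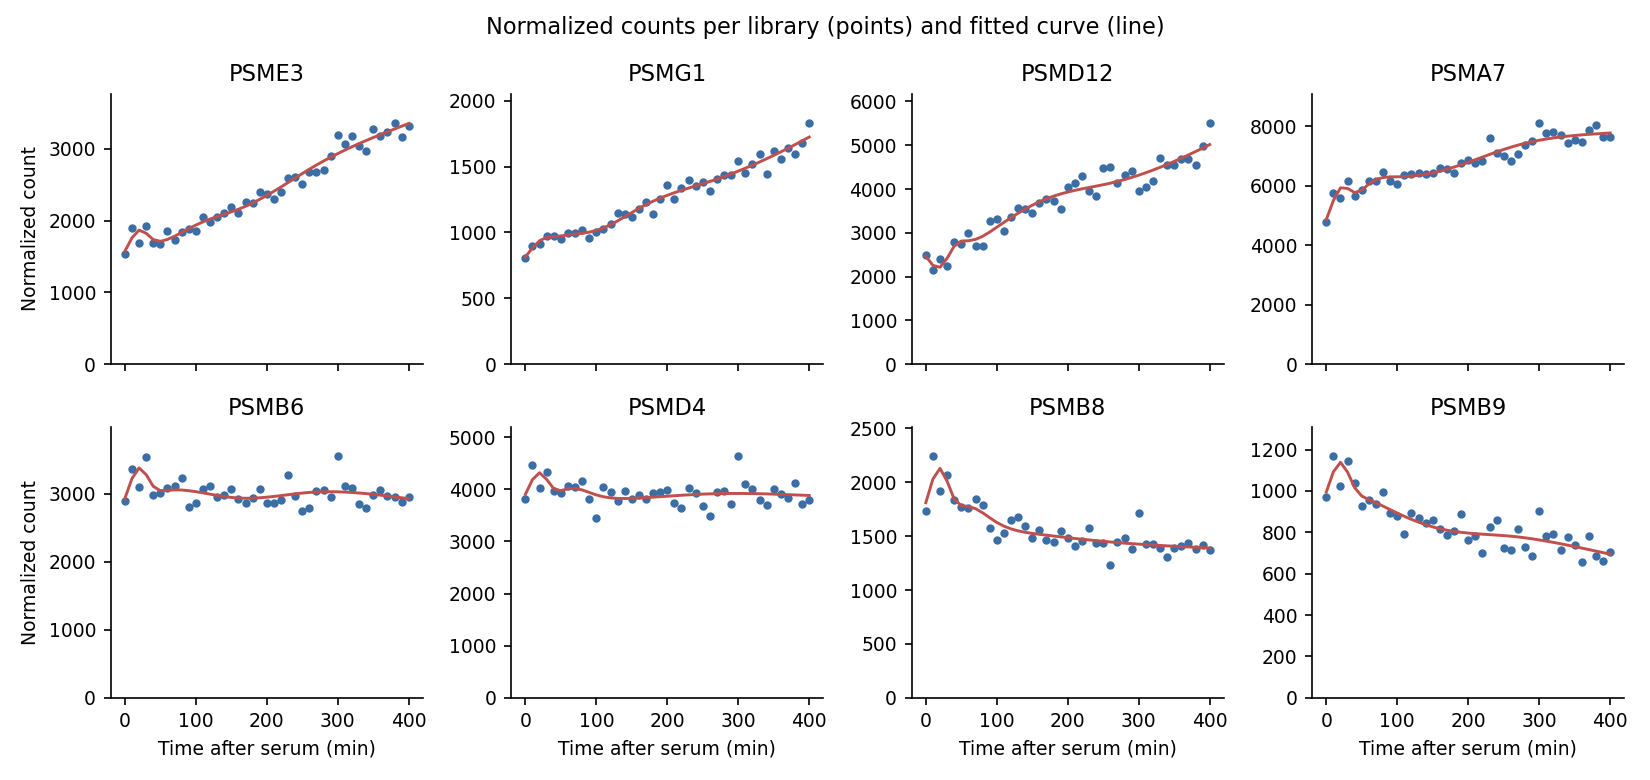
Normalized counts of 8 genes in each of the 41 libraries (points) against time after serum in min, with the fitted curve (line). PSME3, PSMG1, PSMD12 and PSMA7 climb through the course, PSMB6 and PSMD4 end near their 0 min level, and PSMB8 and PSMB9 decline after a first high point at 10 min.

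PSMB8 and PSMB9, the immunoproteasome subunits encoded side by side in the major histocompatibility complex (PSMB8 at chr6:32840717-32844679 on the minus strand, PSMB9 at chr6:32844136-32859851 on the plus strand, GRCh38), fell while the alpha ring rose. PSMB9 had 656, 782, 685, 663 and 707 normalized counts at 360 to 400 min, against 972, 1168, 1024, 1143 and 1038 at 0 to 40 min. PSMB8 had 1406, 1434, 1386, 1415 and 1369 counts late, against 1738, 2243, 1919, 2064 and 1838 early. Neither gene's windows overlap, and each had its highest count of the course at 10 min, at 1168 for PSMB9 and 2243 for PSMB8. The fitted log2 change at 240 min was -0.34 ± 0.095 for PSMB9 and -0.31 ± 0.086 for PSMB8 (adjusted p = 0.0026 and 0.0023, edgeR). At 400 min it was -0.52 ± 0.11 for PSMB9 and -0.38 ± 0.096 for PSMB8 (adjusted p = 4.7e-05 and 0.00073, edgeR). Both calls were lost with spike-in scaling (adjusted p = 0.055 and 0.17, edgeR) at log2 changes of -0.47 and -0.33, and without the 0 min library (0.039 and 0.010), where the log2 changes were -0.77 for PSMB9 and -0.81 for PSMB8. With spike-in scaling in windows of 5 libraries, PSMB9 was called (-0.53, adjusted p = 0.0056, edgeR) and PSMB8 was not (-0.40, adjusted p = 0.033, edgeR).

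Of the exon bases of PSMB9, 5.21% lie under PSMB8-AS1, a long noncoding RNA on the same strand, whose normalized count averaged 80.4 late and 316 early. Its part in the fall of PSMB9 was not tested. PSMB10, the remaining immunoproteasome subunit, lies on chromosome 16 and was not called. It had 1061, 1020, 1116, 1017 and 940 counts late, against 952, 1159, 988, 1136 and 870 early, with overlapping windows and a log2 change of 0.06 ± 0.12 (adjusted p = 0.68, edgeR). Another annotated gene on the same strand holds 39.4% of its exon bases.

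The ratio of each immunoproteasome subunit to the constitutive subunit whose place it takes was lower late than early in all 3 pairs. PSMB8 and PSMB9 themselves fell, while PSMB10 was not called (log2 change 0.06) and PSMB7 rose (0.48). The ratio of PSMB8 to PSMB5, on the log2 scale, averaged -0.66 ± 0.027 late and -0.04 ± 0.077 early (SD, n = 5 libraries each), a difference of -0.62 or a fold of 0.65. For PSMB9 over PSMB6 the log2 ratio was -2.09 ± 0.11 late and -1.57 ± 0.047 early, a difference of -0.52. For PSMB10 over PSMB7 it was -1.84 ± 0.089 late and -1.48 ± 0.10 early, a difference of -0.36. That ratio lay between -1.47 and -1.40 at 0 to 30 min, and was -1.66 at 40 min and -1.65 at 310 min. In each pair all 5 late libraries lie below all 5 early ones. The exact permutation test over libraries gave p = 0.0079 for each (two-sided, adjusted p = 0.0079 over 6 pairs), the smallest value that 5 against 5 libraries allow. These ratios do not depend on the scaling of the libraries. The p-values measure only the spread between neighbouring time points of 1 series. Pairs were called below 0.05, and windows of 4 or 6 libraries, a pseudocount of 1 or leaving out 0 min did not change a call. The exact permutation test gave p = 0.029 for each pair with 4 libraries a window and 0.016 without 0 min. Both are above the 0.01 used for single genes.

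**Figure D4:**
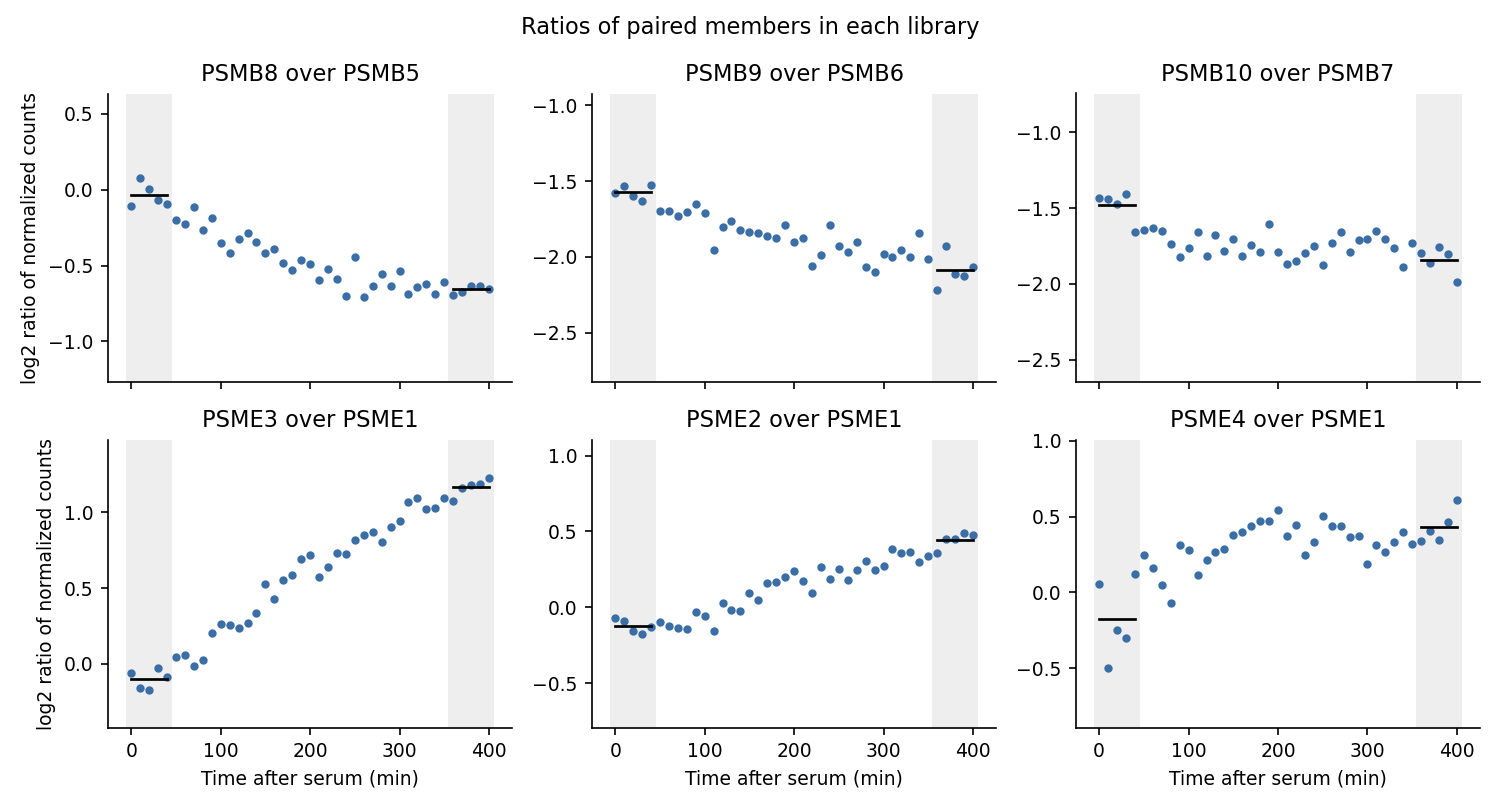
Log2 ratio of the normalized counts of 6 pairs of genes in each library against time after serum in min, with grey bands for the windows of 0 to 40 and 360 to 400 min and black lines for their means. The 3 upper ratios, immunoproteasome over constitutive subunit, fall by 0.62, 0.52 and 0.36 between the windows, and the 3 lower ones, over PSME1, end higher by 1.27, 0.57 and 0.61.

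The activators also differed from each other. PSME3, the nuclear activator, had the largest change of the 48 genes. Its normalized counts were 3170, 3238, 3364, 3165 and 3321 at 360 to 400 min, against 1528, 1900, 1686, 1924 and 1688 at 0 to 40 min, with no overlap. The log2 change was 0.36 ± 0.070 at 120 min and 1.09 ± 0.075 at 400 min (adjusted p = 5.5e-17, edgeR). PSME1, a subunit of the activator that interferon raises, went the other way without passing the test. It had 1505, 1449, 1483, 1389 and 1418 counts late, against 1592, 2123, 1897, 1960 and 1793 early, and each late library is below every early one. The fitted log2 change of PSME1 at 400 min was -0.21 ± 0.075 (adjusted p = 0.013, edgeR), and it was called lower when 360 to 400 min was set against 10 to 50 min (-0.38 ± 0.066, adjusted p = 0.00015, edgeR).

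PSME2 is the partner of PSME1 and its neighbour on chromosome 14 (PSME1 at chr14:24136163-24138967 on the plus strand, PSME2 at chr14:24143362-24147570 on the minus strand). It did not follow PSME1. PSME2 had 1972 ± 35.9 counts late and 1717 ± 176 early (SD, n = 5 each), a log2 change of 0.33 ± 0.078 (adjusted p = 0.00038, edgeR), and its windows overlap through the 10 min library, at 1995. PSME2 also has pseudogenes, which hold 3.45% of its mean count. PSME4, a large single-chain activator, had 1957 ± 117 late and 1660 ± 171 early and a log2 change of 0.26 ± 0.072 (adjusted p = 0.0022, edgeR), and neither PSME2 nor PSME4 was called against 10 to 50 min. Without the 0 min library the fitted change of PSME2 was -0.18. Over PSME1, the log2 ratio of PSME3 was 1.17 ± 0.057 late and -0.10 ± 0.063 early, a difference of 1.27 or 2.41-fold. For PSME2 over PSME1 the difference was 0.57 (1.48-fold), and for PSME4 over PSME1 it was 0.61 (1.52-fold). The exact permutation test gave p = 0.0079 for each of the 3, adjusted as above. PSMF1 had a log2 change of 0.31 ± 0.075 (adjusted p = 0.00049, edgeR) and overlapping windows, with 3056 ± 107 late and 2842 ± 261 early.

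Of the 6 ATPases of the base, 5 rose by 400 min, with log2 changes of 0.32 to 0.74. PSMC4 changed most (0.74 ± 0.079, adjusted p = 5.4e-11, edgeR), with 3151, 3120, 3202, 2981 and 2886 counts late, against 1826, 2099, 1933, 2177 and 1952 early. Its late libraries are all higher than its early ones, and the last 2 are lower than the 3 before them. PSMC6 was not called (0.31 ± 0.14, adjusted p = 0.053, edgeR), although its windows do not overlap. It had 1880, 2128, 2025, 2294 and 2304 counts late, against 1730, 1270, 1200, 1140 and 1677 early, so its early libraries differ among themselves more than those of other ATPases and the 0 min library is the highest of them. PSMC1 was called (0.45 ± 0.059), and 13 processed pseudogenes of PSMC1 together held 52% of its mean count. Reads that fit several genes were counted for each, so these counts do not separate reads of PSMC1 from those of PSMC1P1.

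The other base subunits and the lid held both the largest rises of the 19S particle and a gene that stayed near its start. At 400 min 10 of 11 were higher, with log2 changes of 0.29 to 1.02. PSMD12, a scaffold subunit of the lid, changed most. It had 4678, 4690, 4544, 4989 and 5520 counts late, against 2503, 2142, 2414, 2234 and 2798 early, a ratio of means of 2.02. The log2 change of PSMD12 was 0.44 ± 0.089 at 120 min and 1.02 ± 0.095 at 400 min (adjusted p = 8.9e-13, edgeR). PSMD14, the enzyme of the lid that cuts ubiquitin chains off the substrate, followed with 0.80 ± 0.076, and PSMD2, the largest count of the family and a ubiquitin-binding subunit of the base, with 0.79 ± 0.081. PSMD2 averaged 13283 ± 404 counts late and 8420 ± 594 early. PSMD11, a lid subunit, was the only 19S gene called at 60 min (0.22 ± 0.053, adjusted p = 0.0027, edgeR) and reached 0.56 ± 0.055 at 400 min. PSMD4, which binds ubiquitin chains, had 3907, 3833, 4123, 3721 and 3795 counts late, against 3806, 4458, 4020, 4321 and 3975 early. Its windows overlap, and its log2 change was -0.0074 ± 0.085 (adjusted p = 0.95, edgeR).

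The chaperones of core assembly all rose. PSMG1 had 1557, 1641, 1594, 1681 and 1834 counts late, against 808, 899, 914, 971 and 972 early. The windows are far apart, and the fitted log2 change was 0.27 ± 0.067 at 60 min, 0.38 ± 0.066 at 120 min and 1.08 ± 0.071 at 400 min (adjusted p = 8.5e-18, edgeR). PSMG4 and PSMG3 had changes of 0.97 ± 0.10 and 0.66 ± 0.094. PSMG2, with which the PSMG1 protein pairs, changed least of the 4 (0.52 ± 0.082, adjusted p = 6e-07, edgeR). It had 836 ± 61.1 counts late and 714 ± 73.0 early, with overlapping windows, and its call was lost against 10 to 50 min. Among the base chaperones, PSMD9 (0.67 ± 0.094) and PSMD5 (0.64 ± 0.090) rose. PSMD10, also known as gankyrin, had 1294, 1266, 1220, 1352 and 1359 counts late, against 1467, 1451, 1706, 1494 and 1647 early. Its late libraries all lie below its early ones, but the fitted log2 change of -0.16 ± 0.071 did not pass (adjusted p = 0.060, edgeR). It was called lower against 10 to 50 min (-0.28 ± 0.059, adjusted p = 0.00073, edgeR).

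The 2 genes that share only the symbol pattern differed from each other. PSMC3IP, which acts with recombinases in meiosis, had 219, 211, 190, 211 and 217 counts late, against 114, 94.6, 87.3, 104 and 96.5 early, and a log2 change of 0.96 ± 0.14 (adjusted p = 1.3e-07, edgeR). PSME3IP1, whose product binds PSME3, was lower at 240 min (-0.18 ± 0.051, adjusted p = 0.0035, edgeR) and not at 400 min (-0.04 ± 0.057, adjusted p = 0.60, edgeR). Counting over the 50 genes, the 5 late libraries all lay above the 5 early ones for 31, against 26.3% of all tested genes, and below them for 4, against 25.3% of all tested genes. The 4 were PSMB8, PSMB9, PSMD10 and PSME1. As a share of all gene counts, the 50 genes held 0.393% ± 0.0052 late and 0.319% ± 0.011 early (SD, n = 5 each).

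The rise was spread over hours. For each of the 36 genes higher at 400 min, the midpoint of the rise was the last time at which a running mean of 3 libraries passed upward the level midway between the mean of 0 to 40 min and the highest running mean. These times ran between 87 min (PSME4) and 329 min (PSMG2), with a median of 226 min. PSMD1, PSMC2, PSMD11 and PSMG4 came next after PSME4, at 96, 99, 115 and 119 min. PSMD5, PSMF1 and PSMB3 came last before PSMG2, at 315, 295 and 288 min, and the windows of PSMF1 and PSMB3 overlap as well. Midpoints within a ring or particle were spread, and differences between them were not tested. The alpha ring ran between 188 min (PSMA3) and 271 min (PSMA2 and PSMA6). The other base and lid subunits ran between 96 min (PSMD1) and 282 min (PSMD3). On the fitted curve the alpha ring ran between 123 min (PSMA3) and 263 min (PSMA2). The other base and lid subunits then ran between 101 min (PSMD1) and 264 min (PSMD2), with PSMD3 at 214 min. The running mean of PSMD3 was highest at 310 min, which takes in the 300 min library. Without that library the median time was 221 min. The times have no error of their own. For PSMA3 a running mean of 5 libraries gave 109 min and for PSMB3 the fitted curve gave 14 min.

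**Figure D5:**
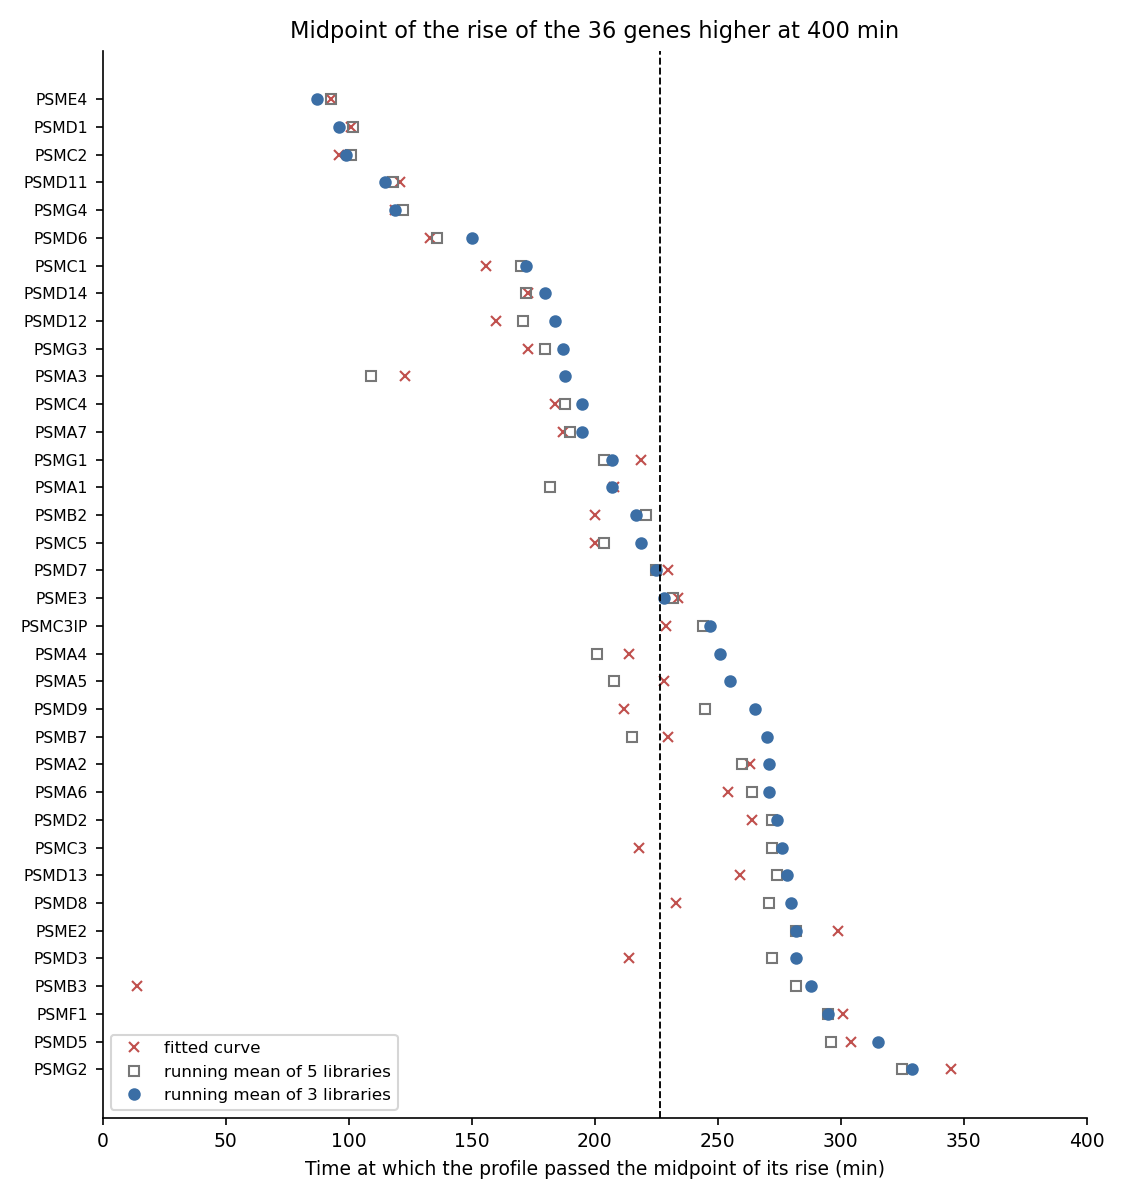
Time in min at which the profile of each of the 36 genes higher at 400 min passed the midpoint of its rise, by a running mean of 3 libraries (filled circles), of 5 libraries (squares) and by the fitted curve (crosses). The dashed line is the median of the filled circles, 226 min. The 3 measures lie furthest apart for PSMB3 and PSMA3, and they also differ for other genes, such as PSMD3 (282, 272 and 214 min).

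Some profiles were alike across roles, and others were not. Over the 41 libraries, the log2 normalized counts of PSMD12 and PSMD14 correlated at r = 0.986, those of PSMC4 and PSME3 at 0.973 and those of PSMG1 and PSME3 at 0.971. These are descriptions over libraries that share a time trend, depth and scaling. The median correlation with the 31 genes of the rings, base and lid was 0.868 for PSME3 and 0.845 for PSMG1. For PSMC3IP, which is no proteasome gene, this median was 0.792, and for PSME4 it was 0.310. It was -0.03 for PSMB6 and 0.002 for PSMD4, each against the other 30, and these 2 genes were closest to each other (r = 0.844). For PSMB8, PSMB9, PSMD10 and PSME1 it was -0.60, -0.72, -0.69 and -0.55. PSME1 was closest to PSMB8 (r = 0.901), and PSMB9 was also closest to PSMB8 (r = 0.900).

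Per kb of exon, the levels of subunits that stand in the same ring differed widely. At 360 to 400 min the alpha ring ran between 432 (PSMA6) and 4415 (PSMA7) normalized counts per kb of all annotated exons, and the beta ring between 597 (PSMB2) and 2596 (PSMB4). Among the immunoproteasome subunits, PSMB10 had 634, PSMB8 had 403 and PSMB9 had 209 per kb, against 2061 for PSMB7, 1428 for PSMB5 and 2051 for PSMB6. These levels depend on the length used. Per kb of the canonical transcript, PSMA7 was still the highest, at 8041, and PSMB8 had 1247 against 2119 for PSMB5, but the lowest of the alpha ring was PSMA5, at 1170, and not PSMA6, at 2748.

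Genes that work with the proteasome were read from lists put together with earlier results of these data known. At 400 min 24.2% of all tested genes were higher and 22.4% lower. Among tested protein-coding genes with a mean normalized count of at least 1000, 48.2% were higher and 17.6% lower (median log2 change 0.27). Of 11 partners, 6 were higher and 1 lower at 400 min (median 0.45). Higher were POMP, which matures the core (0.66), UBE3C, a ubiquitin ligase that binds the proteasome (0.98), USP14, a deubiquitinase (0.61), TXNL1, a thioredoxin bound to the 19S particle (0.53), ADRM1, a ubiquitin receptor (0.52), and ECPAS, an adaptor (0.26). ZFAND5, which stimulates the proteasome, was lower (-0.44). AKIRIN2, which carries proteasomes into the nucleus, was higher at 120 and 240 min (0.48 and 0.35) and not at 400 min (0.03). Of 12 shuttle and control genes, 8 were higher and 2 lower at 400 min (median 0.30), beside the same shares of both sets. The 2 lower ones were NFE2L1, the transcription factor that raises proteasome genes when the proteasome is inhibited (-0.28 ± 0.070, adjusted p = 0.00066, edgeR), and NFE2L2 (-1.64 ± 0.13, adjusted p = 2.4e-13, edgeR). NFE2L2 averaged 4194 ± 262 counts late and 10228 ± 2229 early. DDI2, the protease that activates the NFE2L1 protein, rose most of the list (1.05 ± 0.10, adjusted p = 5.7e-12, edgeR).

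Among genes of ubiquitin, RPS27A, which encodes ubiquitin fused to a ribosomal protein, was higher at 400 min (0.56 ± 0.069, adjusted p = 1.6e-09, edgeR), and the polyubiquitin gene UBB had -0.05 and was not called. Among genes of antigen processing, TAP2, a subunit of the peptide transporter, was higher at 400 min (0.72 ± 0.077, adjusted p = 4.6e-11, edgeR). TAPBP, which helps to load peptides, and HLA-E were lower (-0.29 and -0.20), and TAP1, the other transporter subunit, which lies beside PSMB9, had -0.07 and was not called. IRF1, a transcription factor of the interferon response, was higher at 120 and 240 min (0.48 and 0.38) and not at 400 min (0.14). The CCT chaperonin, another large complex, had 8 of 8 subunits higher at 400 min. The share was 24.2% of all tested genes and 48.2% of the abundant protein-coding genes. The median log2 change of the 8 was 1.13, with a range of 0.62 (CCT7) to 1.74 (CCT2). That of the 48 tested genes with the PSM pattern was 0.44.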

How the data were processed

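Counts per gene were deposited by the authors, who used cutadapt 1.11 for trimming, STAR 2.5.2a for alignment (GRCh38) and featureCounts for strand-specific counting in exons. A read that mapped to, or overlapped, several genes was given to each. The deposited signal is the count over the size factor of DESeq2 1.24.0. Counts agreed between the joint and the single tables in 41 of 41 libraries. The 50 members and the other lists were chosen with earlier results of these data known. Genes were matched by Ensembl ID to GENCODE release 44 (GRCh38), which matched 58207 of 58721 rows (99.2%), and 45 copies on the Y pseudoautosomal regions were left out. The spline (edgeR 4.0.16, R 4.3.3, limma 3.58.1) used 7 degrees of freedom (33 residual), with knots placed at 20, 40, 60, 100, 160 and 260 min, and was tested on simulated data. Alternatives were other scalings, filters, knots and libraries, DESeq2 1.42.0, and windows of 5 libraries. Windows were 360 to 400 and 0 to 40 min. Exact permutation tests used scipy. Full values are given for the largest and smallest change at 400 min in each role, for members lower at any of the 5 times, not called at 400 min or called by 60 min, and for the pairs. PSMD14, PSMD2, PSMD1 and the like were named after their values were seen. Intervals and p-values measure the spread of libraries of 1 culture series, which has no replicate. Some genes of the ubiquitin and antigen processing lists are not reported here, so no counts are given for these lists.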

Additional observations from a re-analysis of the deposited data

Results flagged for a closer look

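A check for a library far from the other 4 of its window (Dixon's criterion at 95%) was run on the 48 genes in both windows, 96 groups in all, of which chance alone flags about 1 in 20. It marked 6 values. At 360 to 400 min, PSMB3 had 2818 normalized counts at 380 min, against 2548 to 2584 in the other libraries, and PSMC3IP had 189.5 at 380 min, against 210.6 to 218.6. PSMD6 had 3044 and PSME4 had 2165 at 400 min, against 2817 to 2853 and 1884 to 1923. At 0 to 40 min, PSMD6 had 2134 at 40 min, against 1947 to 2000 in the others, and PSMA5 had 2993 at 0 min, against 3469 to 3567. The PSMA5 value enters every fitted change of that gene, since each is taken against 0 min.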

How the results depend on the processing

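Counts of the 48 tested genes called higher depended most on the 0 min library and on spike-in scaling. The main counts were 1 at 30 min, 4 at 60, 21 at 120, 35 at 240 and 36 at 400 min. Without the 0 min library they were 0, 0, 0, 2 and 7. The median change at 400 min was then 0.295 in place of 0.444 and the median SE 0.192 in place of 0.077. With spike-in factors they were 0, 0, 0, 6 and 11 (14 in windows of 5 libraries). Of all 21629 tested genes, 369, 1113, 2935, 4675 and 5236 were higher in the main fit. Without the 0 min library 125, 302, 722, 1302 and 1767 of all were higher. With spike-in factors 118, 317, 1043, 2399 and 2795 of all were (4216 in windows of 5 libraries). At 30 min the count was 0 with library size, no filter, evenly spaced knots or every second time point, 3 with DESeq2, 6 without the 20, 50 and 340 min libraries and 8 at a threshold of 0.05. At 60 min it was 1 with library size or no filter, 2 with every second time point, 7 with DESeq2 and 11 at 0.05. At 120 min it was 12 with library size or every second time point. Genes called lower numbered 0 at 120 min (2 with even knots, 3 with 4 degrees of freedom), 3 at 240 min (0 with spike-in factors, without 0 min or with every second time point) and 2 at 400 min. The last count was 0 with spike-in factors, 1 without 0 min, with every second time point or in windows with spike-in factors, and 4 with 4 degrees of freedom or in windows with or without 0 min. Without 0 min the called genes PSMA6 (-0.049) and PSME2 (-0.184) changed sign, as did PSMB1 (-0.287), PSMB5 (-0.039) and PSMB10 (-0.208), which were not called in either fit. Autocorrelated profiles numbered 18 with spike-in factors and 40 with the main scaling. The median midpoint of 226 min was 212 with a running mean of 5, 213 on the fitted curve and 294 with spike-in factors. The 6 pair ratios kept their direction, and their call at a threshold of 0.05, under all 4 alternatives. The cause of these shifts was not tested. No paired analysis was possible because each time point has 1 library. The size of change that could be called differed between genes with their SE.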

Other observations

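The 300 min library held the highest normalized count of the course for 20 of the 48 tested genes. Its median residual about the fitted curves, on the log2 scale, was 0.11 over the 48 genes. It was 0.02 over all tested genes with a mean normalized count of at least 50. Leaving this library out gave 37 of the 48 genes higher and 2 lower at 400 min. PSMC6 and PSMA3 shared a saw-tooth in the first 90 min. PSMD12, PSMD14 and PSME4 were also lower at 10 to 30 min than at 0 and 40 min. They were lower too at 70 and 80 min than at 60 and 90 min. PSMB3, PSMB4 and PSMB6 went the other way in the same libraries, higher at each of these times. PSMB4 had 4787 counts at 0 min, 5750, 5727 and 6233 at 10 to 30 min and 5220 at 40 min. Whether the pattern belongs to the genes or to the libraries was not tested. PSMC6 had 1730 counts at 0 min, 1270, 1200 and 1140 at 10 to 30 min, 1677, 1636 and 1699 at 40 to 60 min, 1440 and 1216 at 70 and 80 min and 1956 at 90 min. PSMA3 had 1126 at 0 min, 1023, 1001 and 941 at 10 to 30 min, 1272, 1287 and 1312 at 40 to 60 min, 1162 and 1036 at 70 and 80 min and 1379 at 90 min. The log2 profiles of PSMA3 and PSMC6 correlated at r = 0.937 over the 41 libraries, which is a description of libraries that share depth and scaling, and these genes were picked after their values were seen.

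PSMG3-AS1, a noncoding gene named for its place opposite PSMG3, averaged 149 normalized counts at 360 to 400 min and 345 at 0 to 40 min, while PSMG3 averaged 1139 and 817.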
